A study of Mus musculus with 4 samples.

Results

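The genes described here mark the earliest neurons of the mouse cerebral cortex. Reln, Trp73, Lhx5, Calb2 and Ebf2 are markers of Cajal-Retzius neurons, and Nr4a2, Cplx3 and Nxph4 are markers of subplate neurons. The 8 genes were chosen by name with earlier results of these data known, and all 8 are among the 26433 genes of the table. RNA of E15 cortex (embryonic day 15) was sequenced from serpina3 conditional knock-in mice, called cKI f/+ here, and from wild type (WT) mice. Both groups carry the strain label C57BL/6, and WT animals were littermates. In cKI f/+ mice 1 Rosa26 allele holds human SERPINA3 behind the CAG promoter and a floxed stop cassette, and Nestin-Cre removes the stop in Nestin-positive progenitors, so that these cells and their descendants carry the active transgene. The founders had been bred with B6D2F2 mice, and whether the WT littermates carried Nestin-Cre is not given in the sources used here. There were 2 cKI f/+ libraries (KI2 and KI3) and 2 WT libraries (WT1 and WT3). The labels call the tissue cerebral cortex and the study's methods call it telencephalic tissue. Nothing in the labels says that libraries of a group came from separate embryos, so the tests measure the spread between these libraries.

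Cajal-Retzius neurons are transient cells of the marginal zone, just below the meninges. They arise at the border of the cortical sheet, above all in the cortical hem, but also in the septum and at the boundary of pallium and subpallium, and they spread over the cortical surface. They secrete Reelin, the glycoprotein that guides migrating neurons into their layers. Subplate neurons settle below the cortical plate, receive the first thalamic axons and largely disappear after birth. Both populations are born before E15, so at this stage they are differentiated minorities within the tissue. In bulk RNA, fewer cells of a type and less RNA per cell cannot be told apart.

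The libraries held between 17423512 and 18119444 counts, and a floor of 3 counts equals 0.166 to 0.172 CPM (counts divided by the library total and scaled to 1e+06). This floor covers counting error only. The neuron markers Tubb3, Neurod6 and Neurod2 lay between 795 and 2037 CPM and the progenitor markers Vim, Fabp7 and Sox2 between 148 and 914 CPM. None of 8 projection neuron markers and none of 7 radial glia markers was called by edgeR or DESeq2, with 1 and 0 at an unadjusted p under 0.05 by edgeR and 2 and 0 by DESeq2. Embryo sex followed genotype. Xist had 13223 counts in KI2 and 11882 in KI3 but 5 per WT library, while Kdm5d, Ddx3y and Uty had 0 counts in both cKI f/+ libraries and Eif2s3y 1 and 0, against 214 to 1149 in WT libraries for these 4 genes. Sex and genotype therefore cannot be told apart in any comparison of the groups.

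Of the 8 genes, 7 had enough counts to be tested and Cplx3 had not. None of the 7 differed between cKI f/+ and WT mice after adjustment (0 called, adjusted p from 0.969 to 0.994, edgeR's quasi-likelihood test, adjusted by Benjamini-Hochberg over 15786 genes). Over all tested genes 19 were called, or 0.12%. At an unadjusted p under 0.05, 1 of the 7 genes passed with edgeR, namely Nxph4, and 0 with DESeq2. Over all genes 4.6% of those tested passed with edgeR and 334 of 26433 with DESeq2. Every list below is to be read beside these shares. The fitted difference lay above 0 for all 7 genes, with a median log2 fold change (cKI f/+ minus WT) of 0.22. Over all tested genes 51.2% lay above 0, with a median of 0.00. The 7 genes were read in the same 4 libraries, so their directions are not independent, and WT1 was the lowest library for 4 of them. For 4 of the 7, namely Trp73, Lhx5, Calb2 and Nxph4, both cKI f/+ libraries lay above both WT libraries, and 16.0% of all tested genes had this order, while 18.0% had the opposite one that none of the 7 showed. For any one gene, an exact permutation of 2 libraries against 2 cannot reach a two-sided p below 0.333.

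**Figure D1:**
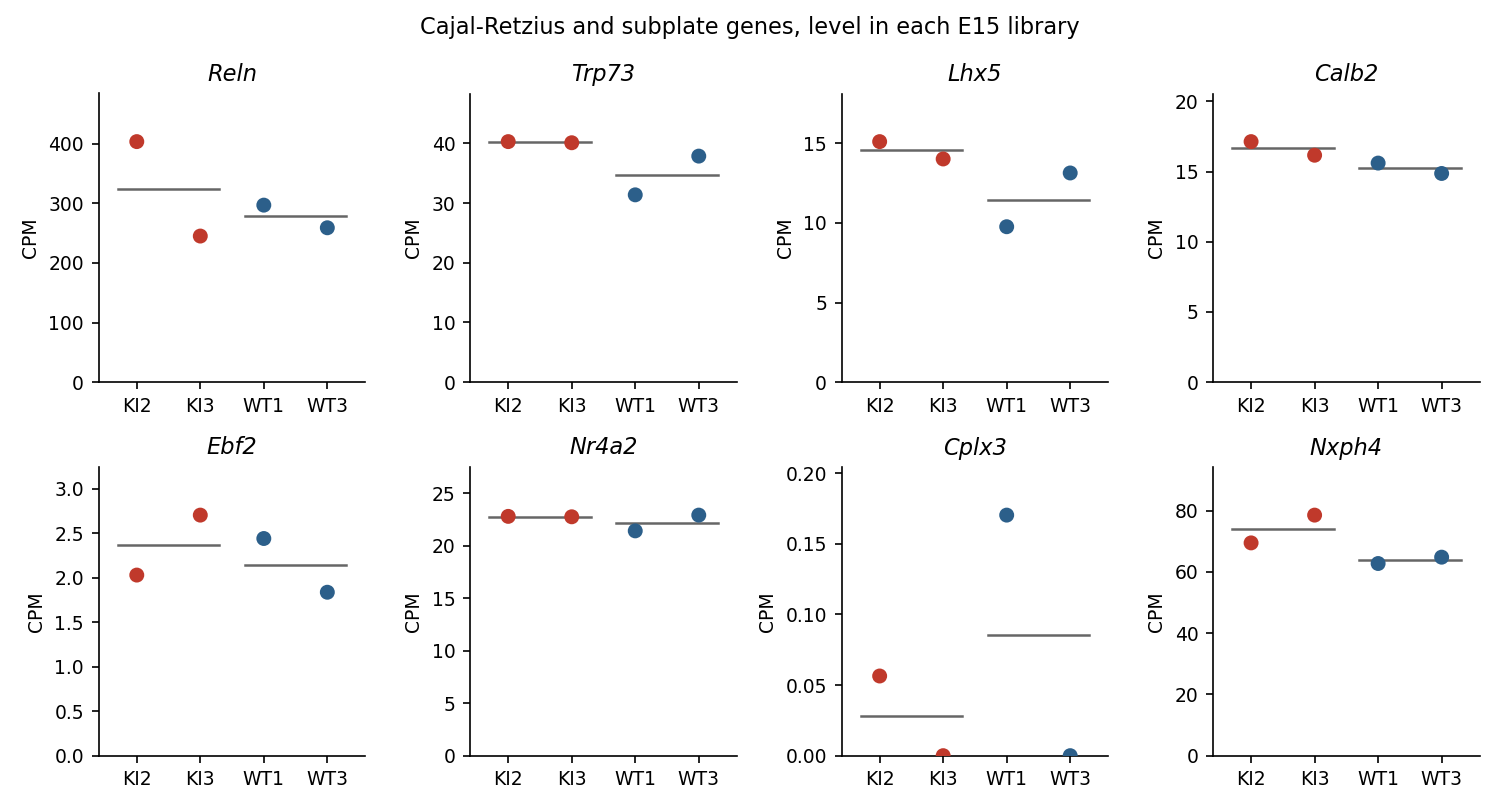
Level of each Cajal-Retzius and subplate gene in CPM (vertical axes, each starting at 0) in the cKI f/+ libraries KI2 and KI3 (red) and the WT libraries WT1 and WT3 (blue); grey lines are the means of 2 libraries. Reln stands at 404 CPM in KI2 and 245 CPM in KI3, with both WT libraries between them, while Nr4a2 stays between 21.4 and 22.9 CPM in all 4.

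Reln encodes Reelin, the ligand secreted by Cajal-Retzius neurons. The gene (ENSMUSG00000042453) is on the minus strand at chr5:21884454-22344702 of the build GRCm38, which all positions here use. Its counts were 7160 and 4443 in KI2 and KI3 and 5233 and 4515 in WT1 and WT3, which is 404, 245, 297 and 259 CPM. KI2 was the highest library and KI3 the lowest, so the groups overlapped and the WT libraries lay within the cKI f/+ range. The cKI f/+ mean was 324 ± 112 CPM (SD, n = 2) and the WT mean 278 ± 26.8 CPM (SD, n = 2), giving a log2 fold change of 0.23 (standard error 0.19, 95% interval -0.20 to 0.65, adjusted p = 0.974). The sign of this difference rested on KI2, since it was -0.19 without that library. It was 0.54 without KI3, 0.33 without WT1 and 0.14 without WT3.

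The gap between the cKI f/+ libraries was wide for Reln. KI2 held 1.65 times the Reln level of KI3, where counting alone gives an SD of 1.18% to 1.5% per library. Among 11111 tested genes with at least 100 counts on average, the median log2 difference between KI2 and KI3 was 0.10, and 77 genes (0.693%) differed by more than the 0.72 of Reln. Between the WT libraries Reln differed by 0.20, and 26.5% of those genes differed by more. Other Cajal-Retzius members lay closer together, with a log2 difference between KI2 and KI3 of 0.01 for Trp73, 0.11 for Lhx5 and 0.08 for Calb2. The ratio of Reln to Trp73 in CPM was 10.01 in KI2 and 9.46 in WT1 but 6.11 in KI3 and 6.84 in WT3, which splits each genotype. Of the genes listed as other markers of these cells, Ndnf, a secreted factor, also had KI2 highest (11.6 CPM) and KI3 lowest (6.18 CPM). Both WT libraries lay between them (9.14 and 9.13 CPM). Among the 8 genes of that list KI3 was lowest for 1, namely Ndnf, and highest for 3. Zic1 of the same list had the opposite order, with KI2 lowest (56.4 CPM) and KI3 highest (85.8 CPM).

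The tested genes whose profile over the 4 libraries was most like that of Reln were Arfgef2, Gm1043 and Adora1. Likeness was the root mean square difference of log2 CPM, centred on each gene's mean of 4 libraries, and it was 0.0498 for Arfgef2, 0.0509 for Gm1043 and 0.0678 for Adora1. Arfgef2, an exchange factor for Arf proteins in vesicle traffic, had 31.8 and 19.4 CPM in KI2 and KI3 and 23.9 and 19.1 CPM in WT1 and WT3. With 4 libraries and 11111 genes, such a match is a description of these libraries only. By the same measure Trp73, Lhx5 and Calb2 were 0.302, 0.322 and 0.231 away from Reln, while Trp73 and Lhx5 were 0.0963 apart.

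Trp73 encodes p73, the transcription factor of the p53 family that Cajal-Retzius neurons of the hem express. The gene (ENSMUSG00000029026) is at chr4:154056253-154140208 on the minus strand. It had 715 and 727 counts in KI2 and KI3 and 553 and 660 in WT1 and WT3, or 40.3, 40.1, 31.4 and 37.9 CPM. The cKI f/+ libraries were nearly equal and lay above both WT libraries, of which WT1 was the lower. The means were 40.2 ± 0.134 CPM (SD, n = 2) against 34.6 ± 4.59 CPM (SD, n = 2), a log2 fold change of 0.22 (standard error 0.11, 95% interval -0.03 to 0.47, adjusted p = 0.969). Without WT1 it was 0.09, and without WT3 0.36.

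Lhx5, a LIM homeobox factor of the hem and of Cajal-Retzius neurons, lies on chromosome 5 (chr5:120431699-120441223, plus strand; ENSMUSG00000029595). It had 268, 254, 172 and 229 counts in KI2, KI3, WT1 and WT3, or 15.1, 14.0, 9.76 and 13.1 CPM. Again both cKI f/+ libraries lay above both WT libraries and WT1 stood lowest. The log2 fold change was 0.35 (standard error 0.17, 95% interval -0.03 to 0.73, adjusted p = 0.969), the largest of the 7, and it was 0.15 without WT1 and 0.58 without WT3. The difference between the WT libraries, 1.35-fold, exceeded that between the cKI f/+ libraries, 1.08-fold. Only 461 of the 11111 genes (4.15%) differed more between WT1 and WT3 than Lhx5 did.

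Calb2 encodes calretinin, a calcium-binding protein of Cajal-Retzius neurons that some interneurons also make. Its position is chr8:110137502-110168210 on the minus strand (ENSMUSG00000003657). Its 304, 293, 275 and 259 counts in KI2, KI3, WT1 and WT3 were 17.1, 16.2, 15.6 and 14.9 CPM. The groups did not overlap, but the gap between KI3 and WT1 was smaller than the spread within either group. It had a log2 fold change of 0.13 (95% interval -0.15 to 0.42, standard error 0.13, adjusted p = 0.980), which was 0.08 without KI2.

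Ebf2, a helix-loop-helix factor of the Collier/Olf/EBF family that labels Cajal-Retzius neurons, was near the lower end of what was tested. It lies on chromosome 14 (chr14:67233292-67430918, plus strand; ENSMUSG00000022053) and had 36, 49, 43 and 32 counts in KI2, KI3, WT1 and WT3, or 2.03, 2.70, 2.44 and 1.84 CPM. The groups overlapped, with KI3 the highest and WT3 the lowest library. Counting alone gives an SD of 14.3% to 17.7% per library here, and the log2 fold change of 0.15 had a 95% interval from -0.53 to 0.83 (standard error 0.30, adjusted p = 0.994).

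Nxph4 encodes neurexophilin 4, a secreted ligand of neurexins that is expressed in subplate neurons. Its position is chr10:127525473-127534559 on the minus strand (ENSMUSG00000040258). It had 1232 and 1423 counts in KI2 and KI3 against 1105 and 1129 in WT1 and WT3, or 69.5, 78.5, 62.7 and 64.8 CPM. Both cKI f/+ libraries lay above both WT libraries. The means were 74.0 ± 6.42 CPM (SD, n = 2) and 63.8 ± 1.46 CPM (SD, n = 2), a log2 fold change of 0.22 (standard error 0.09, 95% interval 0.02 to 0.42). Its interval was the only one of the 7 that left out 0, and the difference was not called over all genes (adjusted p = 0.969). Across the fits that left out 1 library it stayed between 0.13 and 0.29.

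Nr4a2, the orphan nuclear receptor Nurr1, is found in subplate neurons and in the claustrum. It lies on chromosome 2 (chr2:57106830-57124003, minus strand; ENSMUSG00000026826) and had 404, 412, 377 and 399 counts in KI2, KI3, WT1 and WT3, or 22.8, 22.7, 21.4 and 22.9 CPM. The highest and the lowest library were both WT, and they differed 1.07-fold. Between the groups the log2 fold change came to 0.04 (adjusted p = 0.994, standard error 0.11), and its 95% interval from -0.20 to 0.29 corresponds to 0.870-fold to 1.22-fold. Genes with a like flat profile were many, 1747 within a root mean square difference of 0.05, and the 3 nearest were Arhgap33, Zfp746 and Taldo1 (0.00219, 0.00362 and 0.00404). Because Nr4a2 can also be induced by activity as an immediate early gene, its relatives were read beside it. Nr4a1 had 8.34 to 9.87 CPM and Nr4a3 43.9 to 51.4 CPM over the 4 libraries, both with the cKI f/+ libraries inside the range of WT or around it.

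Cplx3 encodes complexin 3, a regulator of synaptic vesicle fusion and a marker of the postnatal subplate. It lies on chromosome 9 (chr9:57599992-57606281, minus strand; ENSMUSG00000039714) and had 1 and 0 counts in KI2 and KI3 and 3 and 0 counts in WT1 and WT3. All libraries were at or under the floor of 3 counts, so no fold is given. Its relatives Cplx1 and Cplx2, which act at synapses of the brain more widely, had 66.9 to 74.3 and 311 to 344 CPM in the same libraries. Cplx3 is therefore a marker that these E15 libraries did not detect above the floor, and the subplate is represented by Nxph4 and Nr4a2.

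Levels of the 8 genes were compared per length. Lengths were the merged exons of each gene in GENCODE M21, which places all 8 genes where the deposited table does. Nxph4 was highest at 41.1 RPKM (CPM per kilobase of exon, mean of 4 libraries), followed by Reln at 12.7, Calb2 at 9.15, Trp73 at 6.76, Nr4a2 at 5.53, Lhx5 at 4.84, Ebf2 at 0.325 and Cplx3 at 0.0192. The ranges over libraries of neighbours in this order did not overlap, except for Nr4a2 (5.27 to 5.64) and Lhx5 (3.63 to 5.62). Reln has many annotated exons, and with its longest coding transcript of 11699 bases as the length its level was 25.75 RPKM. The order was the same with longest coding transcripts for all 8, where the ranges of Nr4a2 (6.00 to 6.42) and Lhx5 no longer overlapped and those of Trp73 (6.23 to 7.995) and Nr4a2 did.

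In the gene ontology terms that the deposited table pairs with genes, hippocampus development was shared by Reln, Trp73 and Lhx5, and 71 genes of the table carry it. Counting is not stated to use strand, and 4 members share exon bases with a gene on the opposite strand. The partners listed in the table had few reads, at most 1 count in any library for Gm10475 (Reln) and Trp73os (Trp73) and 9 to 13 counts for Gm27199 (Lhx5). Gm10860 overlaps 424 exon bases of Ebf2, 6.12% of its length, and was not analysed here.

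Other genes of Cajal-Retzius neurons were read from the same fit. Of 8 listed, all were tested and 0 were called. With edgeR 3 had an unadjusted p under 0.05, beside 4.6% of all tested genes, and with DESeq2 1. Their median log2 fold change was 0.21, and 6 of 8 lay above 0, beside 51.2% of all tested genes. Nhlh2, a helix-loop-helix factor, had 61.6 and 56.4 CPM in KI2 and KI3 against 43.1 and 51.8 in WT1 and WT3, with a log2 fold change of 0.32 (adjusted p = 0.969, standard error 0.11). Lhx1, the close paralog of Lhx5, had 9.75 and 9.82 CPM against 5.56 and 7.92, with a log2 fold change of 0.54 (adjusted p = 0.969, standard error 0.20). Cacna2d2, a calcium channel subunit, had 66.1 and 64.2 CPM against 52.2 and 61.9. Without WT1 the log2 fold change was 0.19 for Nhlh2, 0.31 for Lhx1 and 0.08 for Cacna2d2, and without WT3 it was 0.46, 0.82 and 0.33. In these 3 genes, as in Trp73 and Lhx5, the cKI f/+ libraries lay above the WT libraries and WT1 was the lowest. They were the only 3 of the 8 listed with both cKI f/+ libraries above both WT libraries, beside 16.0% of all tested genes. The opposite order held for 1 of the 8, Ebf1, beside 18.0% of all tested genes. Zic1, a zinc finger factor of the dorsal midline, had 56.4 CPM in KI2 and 85.8 in KI3 around 62.9 and 60.6 in WT.

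Ebf1 had both cKI f/+ libraries below both WT libraries, with 3.16 and 4.14 CPM against 4.60 and 6.49. Its log2 fold change was -0.60 (95% interval -1.16 to -0.03, adjusted p = 0.969), and it was -0.33 without WT3 and -0.82 without WT1. Ebf3 had 266 and 318 counts against 220 and 274, with the groups overlapping, and Ebf4 24.2 to 30.0 CPM over all libraries. WT1 was the lowest library for 7 of the 13 tested genes of the Cajal-Retzius groups, members and others together, and the highest for 0, where over all tested genes it was lowest for 27.4% and highest for 27.3%. KI2 was the highest library for 8 of the 13, where over all tested genes it was highest for 18.9%. The 7 genes with WT1 lowest were Trp73, Lhx5, Lhx1, Nhlh2, Cacna2d2, Ebf3 and the chemokine receptor Cxcr4, picked out after their values were seen.

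**Figure D2:**
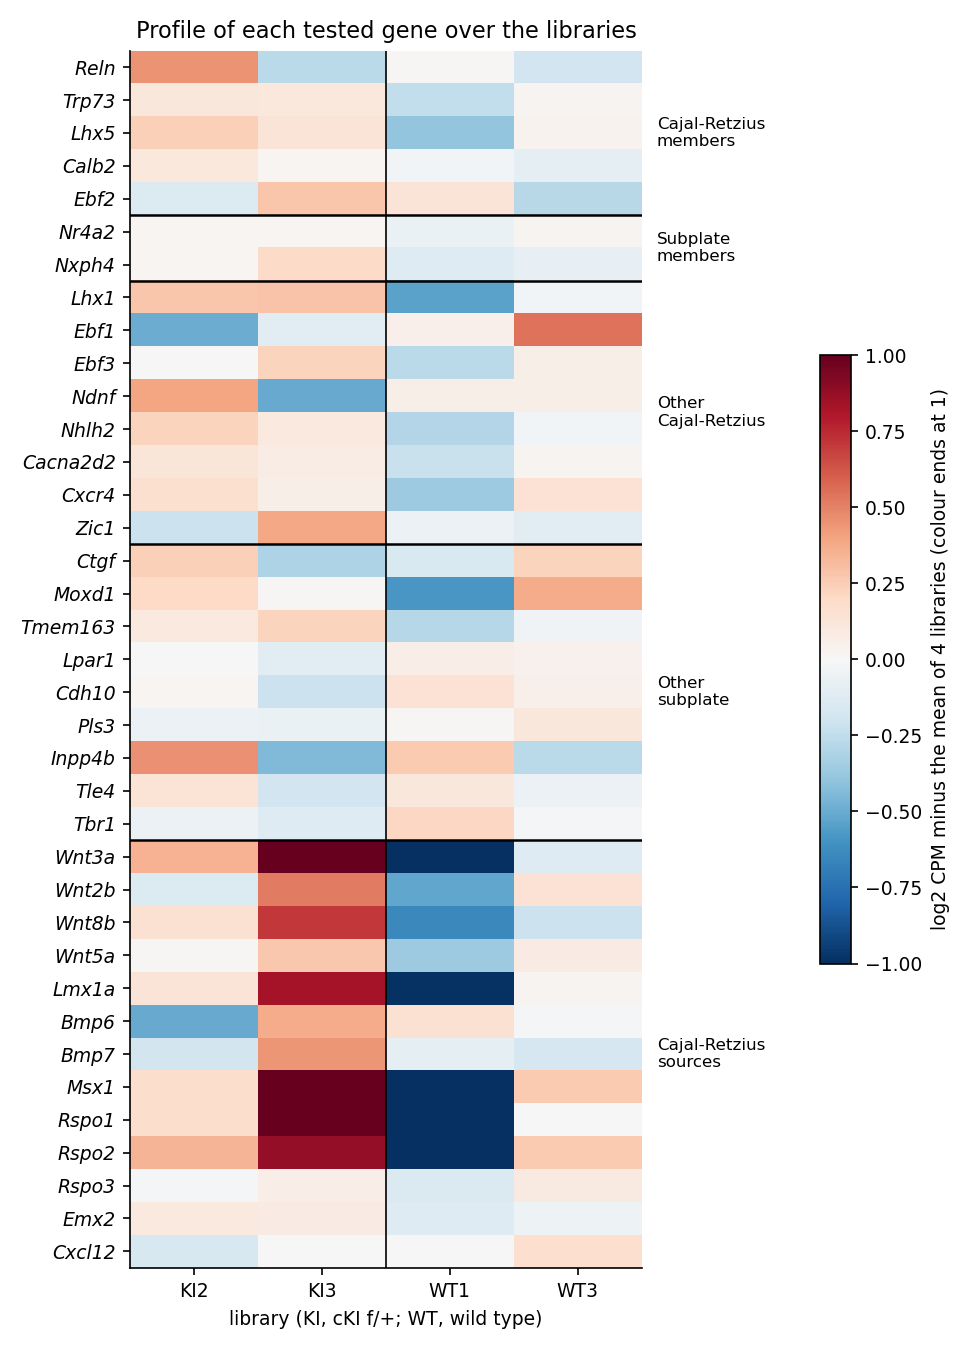
Colour gives log2 CPM of each tested gene (rows) in each library (columns) minus that gene's mean of 4 libraries, with red above and blue below. WT1 has the lowest level of 7 of 13 Cajal-Retzius genes and 10 of 13 source genes, beside 27.4% of all tested genes. KI3 has the highest level of 10 of 13 source genes, beside 27.6% of all tested genes. Reln is red in KI2 and blue in KI3.

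Other subplate genes gave differences on both sides of 0. Of 10 listed, 9 are in the table and were tested, 0 were called, and 0 had an unadjusted p under 0.05 with edgeR or with DESeq2. Their median log2 fold change was -0.05, with 3 above and 6 below 0. For 4 of the 9 both cKI f/+ libraries lay below both WT libraries, beside 18.0% of all tested genes. The opposite order held for 1 of the 9, beside 16.0% of all tested genes. Tbr1, a T-box factor of subplate and deep-layer neurons, had 465 and 442 CPM in KI2 and KI3 and 558 and 478 in WT1 and WT3 (log2 fold change -0.19, 95% interval -0.39 to 0.01, adjusted p = 0.969), which was -0.07 without WT1 and -0.29 without WT3. Tle4, a corepressor of the same early-born layers, had 64.8, 51.7, 63.6 and 56.6 CPM in KI2, KI3, WT1 and WT3. Pls3, an actin-bundling protein, had 26.2 and 26.0 CPM in KI2 and KI3 and 27.5 and 29.4 in WT1 and WT3. Ctgf, a defining gene of the later subplate, had 23 to 33 counts per library, and the groups overlapped.

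The listed genes of the Reelin pathway, among them receptors and intracellular partners, were all expressed. Of 17 listed pathway genes all were tested, 0 were called, and 0 had an unadjusted p under 0.05 with edgeR or DESeq2. The 17 log2 fold changes lay between -0.20 (Adamts3) and 0.11 (Adamts2), with a median of -0.05. Vldlr, a lipoprotein receptor that binds Reelin, had 37.8, 33.0, 37.8 and 34.7 CPM in KI2, KI3, WT1 and WT3 (log2 fold change -0.03, 95% interval -0.27 to 0.22). Lrp8, the other Reelin receptor, also called ApoER2, had 300.0, 283, 322 and 272 CPM (log2 fold change -0.02, 95% interval -0.23 to 0.19). Dab1, the adaptor that is phosphorylated when Reelin binds, had 184, 156, 194 and 180 CPM (log2 fold change -0.13, 95% interval -0.35 to 0.08), and the value was -0.02 without KI3 and -0.27 without KI2. Cdh2 (N-cadherin) and Pafah1b1 (Lis1), which act in the migration that the pathway controls, had log2 fold changes of -0.06 and -0.07.

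The list of Cajal-Retzius source genes holds genes of the regions that give rise to these neurons and the meningeal ligand Cxcl12. Its median difference was above that of the neurons' own markers, a contrast that was not tested. Of 15 listed genes, 13 were tested and 0 were called. With edgeR 6 had an unadjusted p under 0.05 and with DESeq2 4. All of the 6 were higher in cKI f/+ libraries, and 2.26% of all tested genes passed in that direction. The list was chosen with earlier results of these data known, so its share is a description only. The median log2 fold change of the 13 was 0.39. Wnt3a, the signal that defines the cortical hem, had 54 and 104 counts in KI2 and KI3 and 15 and 38 in WT1 and WT3, which gave a log2 fold change of 1.54 (95% interval 0.56 to 2.52, adjusted p = 0.875). Wnt8b, of the hem and adjacent medial pallium, had 187 and 280 counts against 107 and 142 (log2 fold change 0.88, 95% interval 0.37 to 1.38, adjusted p = 0.667). The Wnt enhancer Rspo1 had 139 and 256 counts against 53 and 120, and the hem factor Lmx1a 48 and 80 against 22 and 44.

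These 4 genes, named after their values were seen, had KI3 highest and WT1 lowest. Without KI2, Wnt3a, Wnt8b and Rspo1 passed the threshold (adjusted p = 0.0467, 0.0373 and 0.0478), and these 3 source genes were called. Without WT3, 3 were also called, namely Wnt3a, Rspo1 and Rspo2 (adjusted p = 0.0343, 0.01004 and 0.00689). Without KI3 or without WT1, 0 were called. Over the fits that left out 1 library, the log2 fold change ranged from 1.01 to 2.36 for Wnt3a, from 0.57 to 1.11 for Wnt8b, from 0.67 to 1.87 for Rspo1, from 0.38 to 2.12 for Rspo2 and from 0.50 to 1.51 for Lmx1a. Of the 3 source genes with the highest mean CPM, Emx2, a homeobox factor of the dorsal telencephalon, had a log2 fold change of 0.18, the Wnt enhancer Rspo3 of 0.05 and Cxcl12 of -0.16. Cxcl12 is the meningeal ligand that holds Cajal-Retzius neurons at the surface. The septal and boundary gene Dbx1 had 4 to 8 counts per library and was not tested. Wnt3a, Wnt8b, Rspo1 and Lmx1a were highest in KI3, where Reln was lowest. They also lay above both WT libraries in KI2, where Reln was highest. A link between these genes and Reln was not tested.

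**Figure D3:**
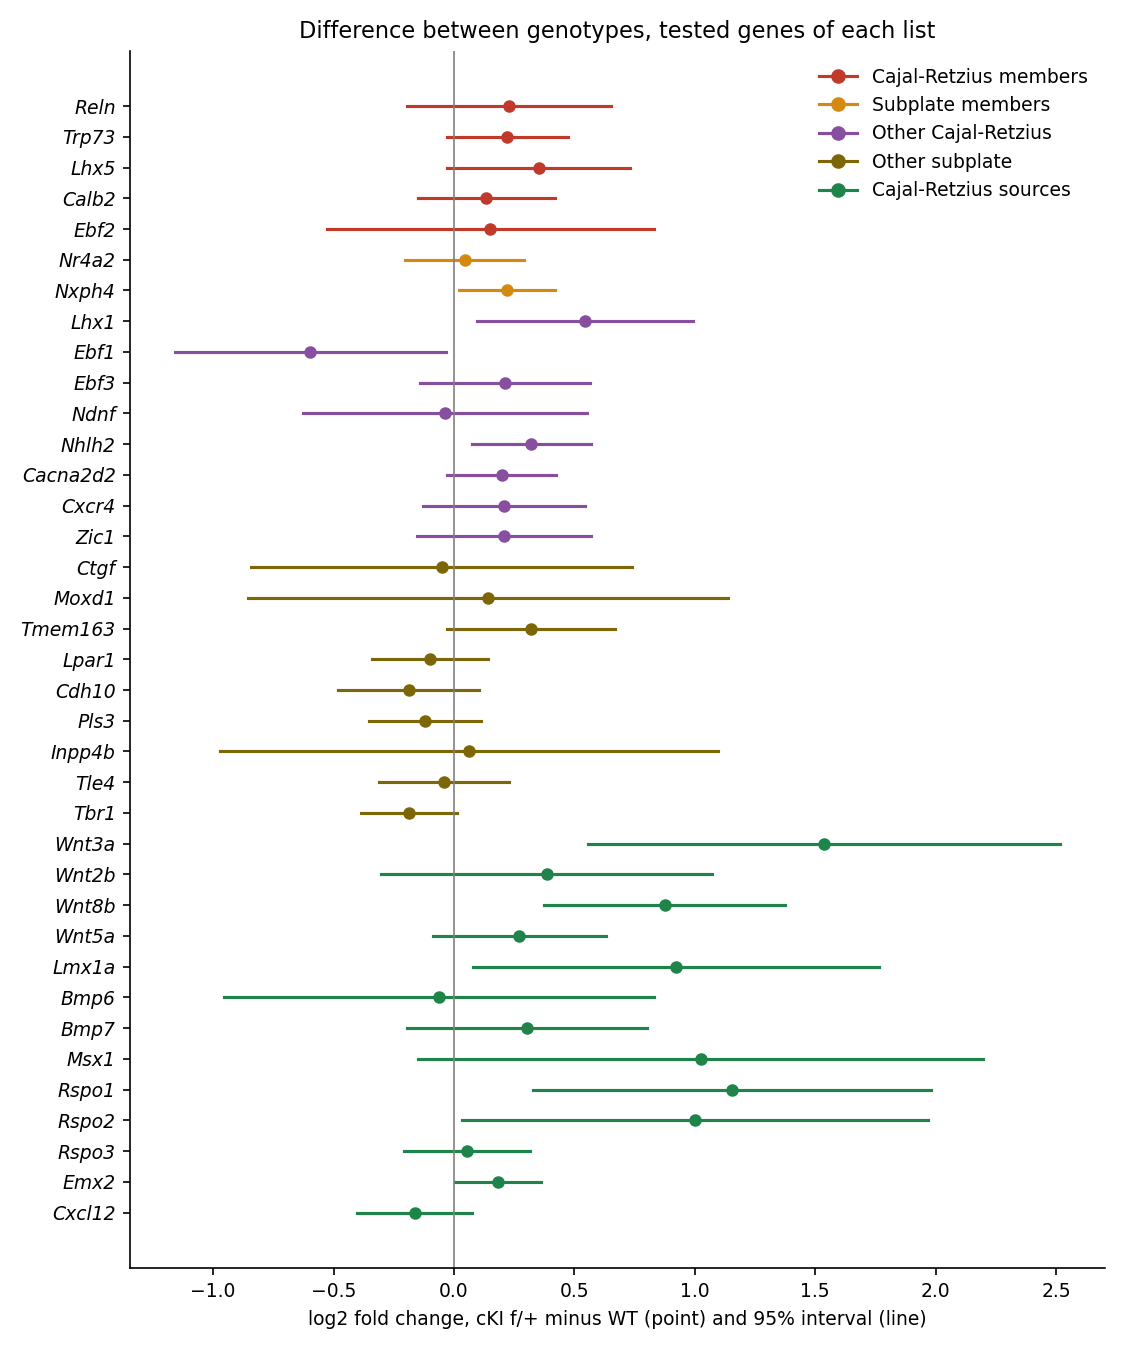
Points are log2 fold changes of cKI f/+ minus WT for the tested genes of 5 lists and lines are their 95% intervals (horizontal axis, log2 scale). All 7 tested Cajal-Retzius and subplate members lie right of 0 and 6 of their 7 intervals cross it, while Wnt3a and Rspo1 of the source list lie furthest from 0, at 1.54 and 1.16.

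Markers of neighbouring tissue were read in the same libraries. Of 9 meningeal genes 6 were tested and 0 called. At an unadjusted p under 0.05 were 4 by edgeR, beside 4.6% of all tested genes, and 4 by DESeq2. The 4 of edgeR (Col1a1, Col1a2, Col3a1 and Dcn) were higher in cKI f/+ libraries. The summed level of all 9 was 21.1 to 22.8 CPM in cKI f/+ and 11.2 to 12.4 CPM in WT libraries. The fibroblast collagens led, with Col1a1 at 4.62 and 3.53 CPM against 0.568 and 1.61, Col1a2 at 5.58 and 3.15 against 1.70 and 1.61, and Col3a1 at 6.60 and 6.68 against 4.09 and 3.67. Lum, Aldh1a2 and Slc6a13 were at 9 counts or fewer in every library, and Foxc1 and Foxd1 overlapped between the groups or were lower in cKI f/+ libraries.

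Of 6 choroid plexus genes 4 were tested and 0 called. At an unadjusted p under 0.05 were 3 by edgeR, beside 4.6% of all tested genes, and 4 by DESeq2. The summed level of the 6 was 10.04 CPM in KI2 and 67.2 in KI3 against 1.36 and 2.87 CPM in WT1 and WT3. Ttr, which the choroid plexus makes in large amounts, had 116 and 956 counts in KI2 and KI3 against 0 and 4. Clic6 had 15 and 118 against 5 and 10, and Aqp1 30 and 65 against 15 and 12. Kcne2 had 6 and 59 against 1 and 7, and Folr1 9 and 20 against 3 and 16. Kl was at 2 counts or fewer in every library. The choroid plexus is continuous with the hem, and the meninges cover the Cajal-Retzius layer. The part of these markers in the values of the members and of the source genes was not tested.

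GABAergic neurons, some of which make calretinin or Reelin, had summed levels that overlapped between the groups. Of 10 markers all were tested and 0 called, with 2 at an unadjusted p under 0.05 by either tool, and the sum was 285 and 311 CPM in cKI f/+ libraries and 289 and 362 CPM in WT libraries. Dlx1 had 97.9 and 108 CPM against 101 and 129, Lhx6 62.1 and 50.7 against 54.6 and 59.9, and Sst 37.5 and 47.8 against 34.9 and 40.9. The 2 markers of edgeR were Dlx2, with 24.6 and 33.6 CPM against 38.6 and 49.5, and Nkx2-1, with 19 and 17 counts against 6 and 3. Of 8 listed diencephalic markers, 7 are in the table and 5 were tested with 0 called, where 1 (Barhl2) had an unadjusted p under 0.05 with edgeR and 0 with DESeq2. They summed to 42.7 and 50.2 CPM in cKI f/+ and 40.5 and 44.7 CPM in WT libraries, most of it Lhx9, which the medial pallium also expresses. The defining thalamic marker Gbx2 was at 0 counts in 3 libraries and 1 in WT1. Tcf7l2 had 7.89 and 8.94 CPM against 11.8 and 10.1, and Barhl2 3.89 and 3.59 against 2.50 and 2.47.

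**Figure D4:**
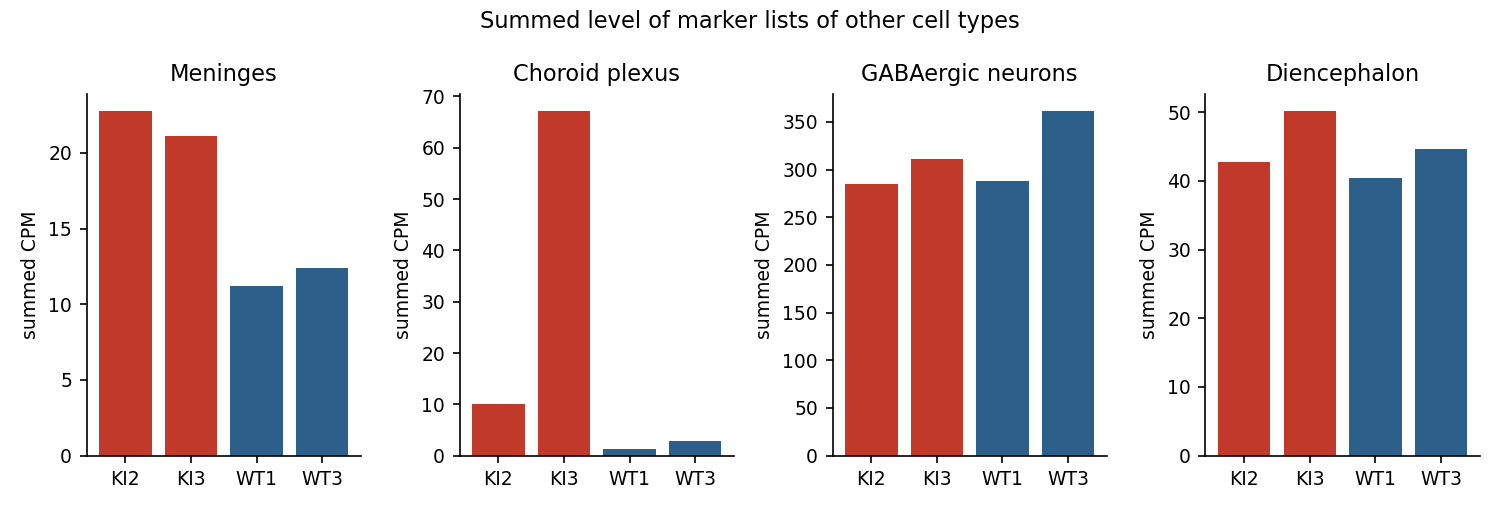
Bars are the summed CPM (vertical axes from 0) of marker lists of meninges, choroid plexus, GABAergic neurons and diencephalon in each library, red for cKI f/+ and blue for WT. Meningeal markers reach 21.1 to 22.8 CPM in cKI f/+ and 11.2 to 12.4 CPM in WT libraries, and choroid plexus markers reach 67.2 CPM in KI3.

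The paralogs of the 8 genes gave 0 called of 13 tested, with 2 at an unadjusted p under 0.05 (Lhx1 and Ebf1) with edgeR and 0 with DESeq2, and a median log2 fold change of 0.01. Trp53 had 190 to 203 CPM over the 4 libraries, whereas Trp63 had at most 6 counts and Pvalb at most 1 count in a library. Calb1 had 4.20 to 5.91 CPM. Nxph1 and Nxph3 had log2 fold changes of 0.18 and -0.05 beside the 0.22 of Nxph4, and Nxph2 of -0.02. Of 11 immediate early genes 9 were tested and 0 called, with 1 at an unadjusted p under 0.05 by DESeq2 and 1 by edgeR, the latter being Ier2 (42.1 and 42.9 against 34.9 and 32.5 CPM, log2 fold change 0.34, adjusted p = 0.824). Jun had a log2 fold change of 0.05 and Nr4a3 of 0.01.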

How the data were processed

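Bulk RNA sequencing of E15 tissue from 2 cKI f/+ and 2 WT libraries was analysed. The values the authors deposited are raw counts for each gene, without normalization. Per the labels the submitters' processing notes name Bowtie2 2.2.3, TopHat2 2.0.12 and HTSeq 0.6.0 and the build mm9, while gene positions in the deposited table are those of GRCm38. The table also holds the authors' mean, fold changes and p-values, which were not used. Columns were assigned to a genotype by name, not to single labelled samples, and the labels describe triplicates.

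CPM were counts scaled to library size. The default expression filter of edgeR 4.0.16 (in R 4.3.3) left 15786 of 26433 genes. After TMM normalization (factors 0.995 to 1.003) its quasi-likelihood test was applied, and p-values were adjusted by Benjamini-Hochberg with 0.05 as the threshold. The biological coefficient of variation was 8.72%. A standard error is the log2 fold change divided by the square root of F, and 95% intervals use the test's degrees of freedom. Alternatives were DESeq2 1.42.0, the likelihood ratio test, other normalizations and filters, leaving out each library in turn, and leaving out the X and Y chromosomes. The quasi-likelihood test was also run on simulated counts with known changes, drawn with the means and dispersions of these data.

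The members and gene lists were chosen with earlier results of these data known. Named genes were the members, their paralogs, called genes, the 3 genes of highest mean CPM per list, the Reelin receptors and Dab1, sex-linked genes, and the 3 genes nearest in profile to Reln and Nr4a2. Wnt3a, Wnt8b, Rspo1, Rspo2, Lmx1a, Dbx1, Ndnf, Cxcr4, Ctgf, Lum, Aldh1a2, Slc6a13, Foxc1, Foxd1, Dcn, Dlx2, Nkx2-1, Kcne2, Folr1, Kl, Gbx2 and the overlapping antisense genes were named after their values were seen. The profile over libraries and the spread between KI2 and KI3 were also described after the values were seen. Lists covered other Cajal-Retzius genes, other subplate genes, the Reelin pathway, Cajal-Retzius sources, paralogs, immediate early genes and markers of GABAergic neurons, diencephalon, meninges, choroid plexus, projection neurons and radial glia. Of the listed genes, Ccn2 (as Ctgf), Cplx4 and Foxb1 were not found under these names. Of the Cajal-Retzius source list, 1 gene is not reported here and was left out of its counts.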

Additional observations from a re-analysis of the deposited data

How the results depend on the processing

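No member was called under any of the 8 other settings or the 4 fits that left out 1 library, and the same holds for the lists of other Cajal-Retzius genes, other subplate genes, Reelin pathway genes, paralogs and immediate early genes. Of 84 member values under the alternatives, 80 kept their direction. The 4 that did not came from leaving out a library: over these fits the log2 fold change ranged from -0.19 to 0.54 for Reln, from -0.0699 to 0.37 for Ebf2 and from -0.0035 to 0.10 for Nr4a2. Among other named genes the same fits reached from -0.023 to 0.49 for Cxcr4, -0.23 to 0.11 for Tle4, -0.15 to 0.067 for Vldlr and -0.14 to 0.10 for Lrp8. The number of source genes called, 0 under the 8 other settings, ranged from 0 to 3 over the fits that left out 1 library. The number of called genes over the table, 19, was 54 by likelihood ratio, 6 where every library had to hold 10 counts or more, which removes genes absent from a group, and 11 without chromosomes X and Y, and it ranged from 46 to 71 when 1 library was left out. In those fits the lone library of a group is assumed to vary like the others. The causes of the other shifts were not tested. No paired analysis was possible because the labels give the groups no shared replicate numbers and the column names share only 1. Depth limited Cplx3, at or under 3 counts, and Ebf2, at 32 to 49 counts.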
